A study of Saccharomyces cerevisiae with 2 samples.

Results

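The genes described here encode the thioredoxin, glutathione and oxidative stress defence of budding yeast (Saccharomyces cerevisiae), the enzymes that remove peroxides and superoxide and keep protein thiols reduced. They were measured on 2 two-colour Agilent arrays, each holding RNA from a YDR374C deletion strain labelled with Cy5 (red) and RNA from a wild-type strain labelled with Cy3 (green). Both strains share the BY4741 background, a haploid laboratory strain that lacks several metabolic marker genes, and both were grown in SD, a synthetic glucose medium, to mid-exponential phase (OD600 of 0.7). YDR374C encodes Pho92, an RNA-binding protein with a YTH domain. The list holds 32 genes among 6256 on the array. Of these, 28 carry the listed name in the files, and 4 were found through their systematic name: PRX1 and SRX1, which the array names by reading frame, GRX2 (TTR1 in the files) and CCS1 (LYS7 in the files). Each gene has 1 probe, and the 32 probes fill 51 of 10263 gene spots. The labels name no oxidant for either group, so the values are read as growth without added oxidant.

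Thioredoxins are small proteins that pass electrons from NADPH, through thioredoxin reductase, to peroxiredoxins and other oxidised proteins, while glutathione and the glutaredoxins do related work on a parallel route. Superoxide dismutases turn superoxide into hydrogen peroxide, which peroxiredoxins, catalases and cytochrome c peroxidase then break down. In yeast many of these genes are switched on under peroxide stress by the transcription factors Yap1 and Skn7.

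Without a dye swap, a probe's own dye preference and a strain difference cannot be told apart. The 2 arrays lie on 1 slide, and nothing in the labels says that they come from separate cultures. The limma p-values and SEs therefore measure only spread between these arrays, in large part a spread pooled over all tested genes. Median raw gene signals were 2105 (red) and 1597 (green) on array 1, and 3105 (red) and 2371 (green) on array 2. The probe of the deleted gene does not settle the strain labels: its log2 ratio was -0.24 on array 1 and -0.22 on array 2, and signals in the deletion-labelled RNA remained at 215 and 245, against 254 and 285 in wild-type RNA. Of the marker genes deleted in whole or in part in BY4741, URA3 was nevertheless called higher, with log2 ratios of 0.27 and 0.39 (mean 0.33; limma adjusted p = 2.09e-06) on a dim probe, HIS3 did not pass (-0.03), and LEU2 and MET17 were not tested because their probes were not well above background. A call on a dim probe, such as those of GRX4, GPX1 and CTT1 here, also occurred for a gene deleted in this strain background. What lay behind the URA3 call was not tested. In the scanner software's error model its largest spot p was 0.495 on array 1 and 0.12 on array 2. The red channel is therefore called deletion-labelled RNA below, and all directions rest on the dye labels. Probe sequences were not used here, so it was not examined whether probes of related genes, such as TRX1 and TRX2, tell them apart.

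Of the 32 genes 30 were tested. A total of 11 were higher and 11 lower in deletion-labelled RNA at limma's adjusted p threshold of 0.05, and 8 did not pass. Over all 5641 tested genes 73.1% passed (36.4% higher and 36.7% lower), and among the redox genes 73.3% passed, so their share is that of the background. The median log2 ratio of the 30 genes was -0.0033, against -0.0019 for all tested genes, and the median absolute log2 ratio was 0.16, against 0.17. The 2 arrays gave the same sign for 27 of the 30 genes, compared with 89.6% of all tested genes. The defence genes as a group thus showed no common direction, and several related genes moved in opposite directions.

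**Figure D1:**
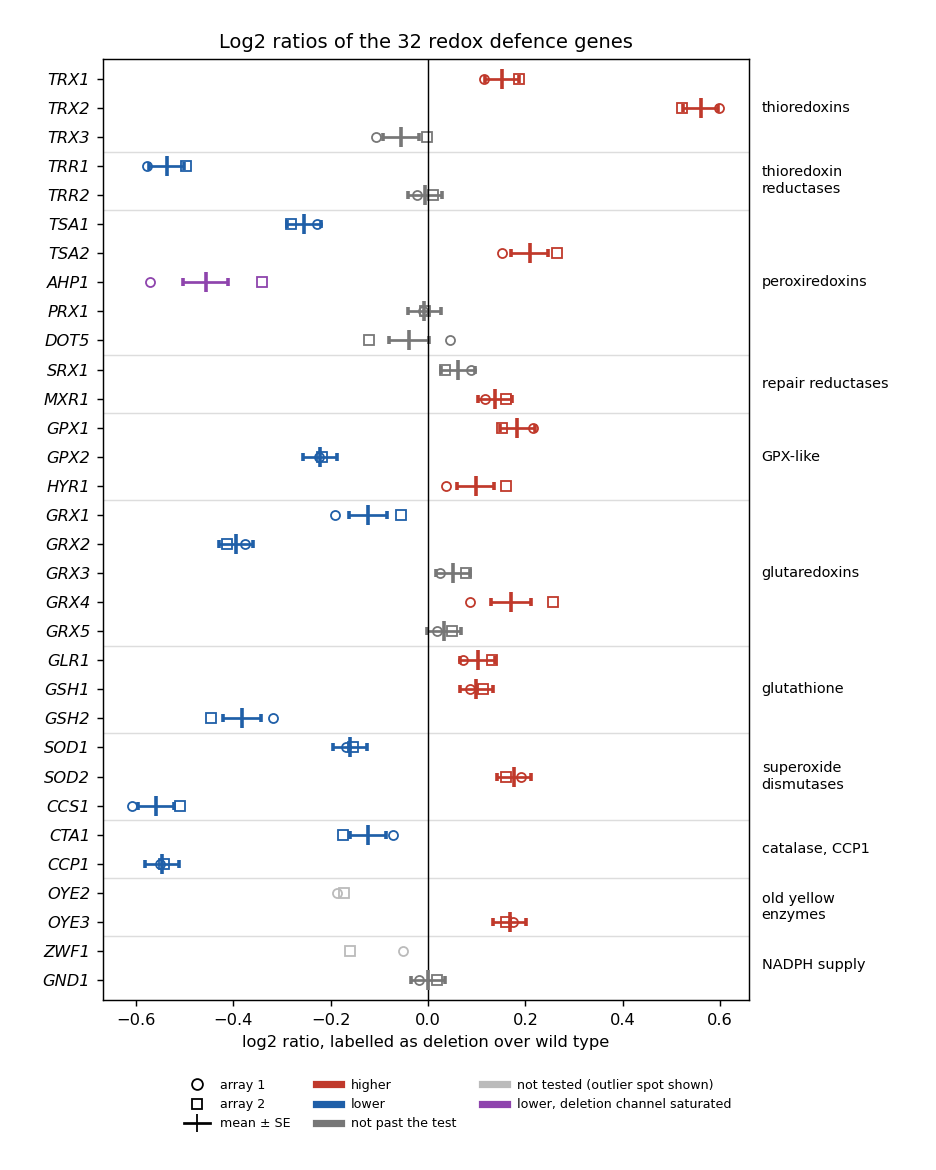
Log2 ratio of deletion-labelled over wild-type RNA (horizontal axis) for the 32 genes, ordered by role; circles are array 1, squares array 2, and bars the mean ± SE of the limma fit (n = 2), red for higher, blue for lower and grey for not passing or not tested. TRX2 lies furthest right at 0.56, CCS1, CCP1 and TRR1 lie between -0.56 and -0.54, and AHP1 is drawn in purple because its red spot was saturated.

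The 4 largest differences were those of TRX2, which was higher, and of CCS1, CCP1 and TRR1, which were lower. These 4 genes, or 13.3% of the 30, passed the test with an absolute log2 ratio of at least 0.5, as did 8.01% of all tested genes (4.13% higher and 3.88% lower). The other 18 called redox genes had smaller ratios. A stricter test against a 1.5-fold change, limma's treat, was chosen after seeing the data. It could not call any of the 30 redox genes, because the largest ratio, that of TRX2, was 1.47-fold. None passed, and none had an unadjusted p under 0.05 (the lowest was 0.746, for TRX2, in limma's treat over n = 2). Over all genes 1.45% passed the adjusted test, but no conclusion about the redox genes follows from that difference.

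TRX2 encodes the cytosolic thioredoxin that Yap1 induces under peroxide stress. Its normalised signal, the background-corrected spot brightness after loess with an offset of 50 (arbitrary units), was 2595 and 4045 in deletion-labelled RNA on arrays 1 and 2, against 1713 and 2817 in wild-type RNA. Deletion-labelled RNA was thus brighter on each array. All 4 spots of the probe showed it, with log2 ratios of 0.65 and 0.55 on array 1 and 0.52 and 0.52 on array 2. The mean was 0.56 ± 0.04 on the log2 scale (SE, n = 2; limma adjusted p = 4.37e-09) or 1.47-fold, and 148 of the tested genes had a higher ratio. TRX1, the other cytosolic thioredoxin, was higher by much less, with 2669 and 4886 in deletion-labelled RNA against 2463 and 4290 in wild-type RNA (log2 ratio 0.15 ± 0.04; limma adjusted p = 0.00145). TRX2 exceeded TRX1 in log2 ratio by 0.48 on array 1 and 0.33 on array 2, a difference that was not tested. TRX3, the mitochondrial thioredoxin, had log2 ratios of -0.11 and -0.00 and did not pass (limma adjusted p = 0.196). It passed as lower after median centring (-0.11, limma adjusted p = 0.0194) and with the values of the authors' series table (-0.12, limma adjusted p = 0.0336). Its probe was dim, with a mean log2 signal of 8.39.

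The reductase that recharges the cytosolic thioredoxins moved the opposite way from TRX2. TRR1 had normalised signals of 10147 and 13194 in deletion-labelled RNA, against 15137 and 18616 in wild-type RNA. Wild-type RNA was the brighter on each array, and the log2 ratio was -0.54 ± 0.04 (SE, n = 2; limma adjusted p = 6.88e-09), with 175 tested genes lower still. After median centring in place of loess the value was -0.31 and the call was kept. TRR2, the mitochondrial reductase, had log2 ratios of -0.02 and 0.01 and did not pass (limma adjusted p = 0.876). The thioredoxin and reductase of mitochondria thus stayed within 0.11 of 0 on both arrays.

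Among the 5 peroxiredoxins, which break down peroxides with electrons from thioredoxin, 1 was higher, 2 were lower (TSA1 and the saturated AHP1) and 2 did not pass. Over all tested genes 36.4% were higher and 36.7% lower. TSA1, the main cytosolic form, had 25135 and 23039 in deletion-labelled RNA against 29426 and 28016 in wild-type RNA, with a mean ratio of -0.25 ± 0.04 on the log2 scale (limma adjusted p = 1.20e-05) that turned to 0.01 and lost its call after median centring (limma adjusted p = 0.789). The array 1 value of TSA1 rests on 1 of its 2 spots, since the other was marked as an outlier. TSA2, its stress-induced relative, was higher, with 1706 and 3391 in deletion-labelled RNA against 1535 and 2822 in wild-type RNA (log2 ratio 0.21 ± 0.04; limma adjusted p = 0.000153). TSA2 exceeded TSA1 in log2 ratio on both arrays under loess, by 0.38 and 0.55, a difference that was not tested.

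AHP1, a peroxiredoxin that prefers organic hydroperoxides, had the only saturated spot of the list, and it is shown apart. All 241 pixels of its red spot on array 1 and all 242 on array 2 were saturated, while the green spots were not. The deletion-labelled level is therefore a lower bound. The measured log2 ratios of -0.57 and -0.34 (mean -0.46, limma adjusted p = 4.71e-07) give neither a fold nor a settled direction. After median centring the mean was -0.18. Of 55 tested genes with red saturated on both arrays, 42 were called lower and 5 higher. Without saturated spots the list has 10 lower genes. PRX1, the mitochondrial peroxiredoxin, had a log2 ratio of -0.01 on each array. DOT5, the nuclear form, had 0.04 and -0.12, so its sign differed between arrays (limma adjusted p = 0.408).

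Of the 2 enzymes that repair oxidised protein, MXR1 was higher and SRX1 did not pass. MXR1, which reduces methionine sulfoxide, had log2 ratios of 0.12 and 0.16 (mean 0.14 ± 0.03; limma adjusted p = 0.00247). SRX1, the sulfiredoxin that restores over-oxidised Tsa1, had 0.09 and 0.04 (limma adjusted p = 0.129).

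**Figure D2:**
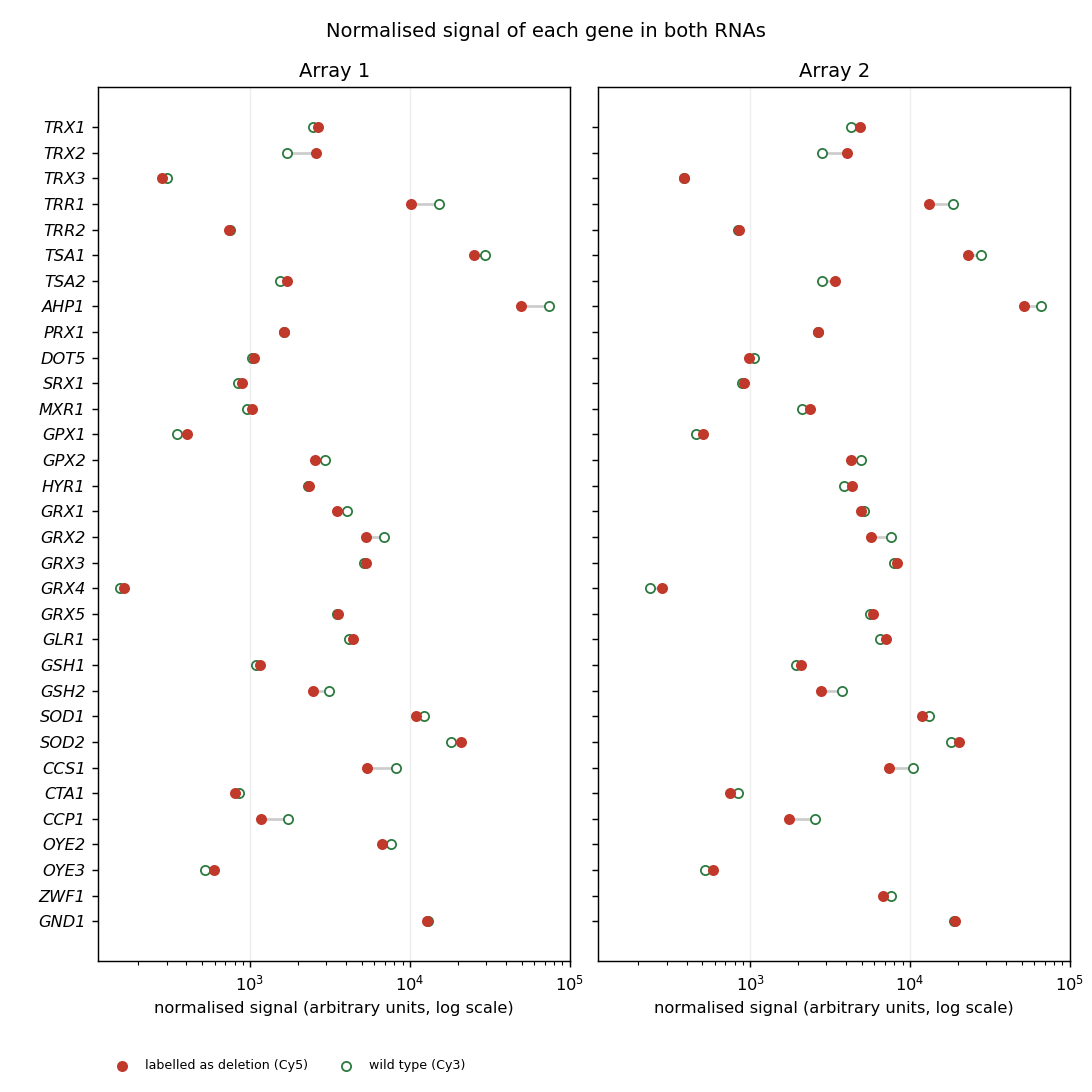
Normalised signal in arbitrary units (log axis) of each gene on array 1 (left) and array 2 (right), filled for deletion-labelled RNA and open for wild-type RNA, with a line joining both. TRX2 is brighter in deletion-labelled RNA on both arrays and TRR1, CCS1 and CCP1 are dimmer; OYE2 and ZWF1 are missing on the array where their spot was an outlier. Brightness differs between probes and gives no order of transcript levels.

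Among the superoxide dismutases and their copper chaperone, 1 gene was higher and 2 were lower, beside 36.4% and 36.7% of all tested genes. CCS1, the chaperone that loads copper into Sod1, had 5402 and 7366 in deletion-labelled RNA against 8233 and 10484 in wild-type RNA, lower on each array. At -0.56 ± 0.04 on the log2 scale (limma adjusted p = 5.75e-09), its ratio was the lowest of the list, and 149 tested genes lay below it. SOD1, the cytosolic copper-zinc enzyme, had 10858 and 11891 in deletion-labelled RNA against 12196 and 13231 in wild-type RNA, with a log2 ratio of -0.16 ± 0.03 (limma adjusted p = 0.000692) that turned to 0.05 and lost its call after median centring (limma adjusted p = 0.245). SOD2, the manganese enzyme of mitochondria, was higher. It had 20804 and 20275 in deletion-labelled RNA against 18218 and 18131 in wild-type RNA (log2 ratio 0.18 ± 0.03; limma adjusted p = 0.000335), and 0.44 after median centring. SOD2 exceeded SOD1 by 0.36 and 0.32 on the log2 scale, a difference that was not tested.

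Both peroxidases with heme were lower. CCP1, the cytochrome c peroxidase of mitochondria, had 1172 and 1759 in deletion-labelled RNA against 1717 and 2563 in wild-type RNA. Its 4 spots ran the same way, with log2 ratios between -0.60 and -0.50, and the mean was -0.55 ± 0.03 (SE, n = 2; limma adjusted p = 3.74e-09). CTA1, the peroxisomal catalase, was lower by less, with log2 ratios of -0.07 and -0.18 (mean -0.12 ± 0.04; limma adjusted p = 0.00748). Array 1 alone would give -0.07 for CTA1. Of the 6 genes whose products work in mitochondria alone (TRX3, TRR2, PRX1, GRX5, SOD2 and CCP1), 1 was higher, 1 lower and 4 did not pass, beside 73.1% called among all tested genes. After median centring TRX3 and GRX5 passed as well, as lower and as higher.

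In glutathione synthesis the first and the second enzyme differed in direction. GSH2, glutathione synthetase, had 2494 and 2777 in deletion-labelled RNA against 3112 and 3783 in wild-type RNA, and its log2 ratio was -0.38 ± 0.04 (SE, n = 2; limma adjusted p = 4.36e-07). GSH1, the rate-limiting first enzyme, was higher by 0.10 ± 0.03, from log2 ratios of 0.09 and 0.11 (limma adjusted p = 0.0181), a call that was lost after median centring (0.05, limma adjusted p = 0.167). GLR1, which reduces oxidised glutathione with NADPH, was higher by 0.10 ± 0.04, from 0.07 and 0.13 (limma adjusted p = 0.0176). It lost its call with the scanner software's log ratios (limma adjusted p = 0.0574), and median centring gave 0.19 with the call kept. The array 1 value of GLR1 and the array 2 value of GSH1 each rest on 1 of 2 spots. With the outlier spots kept they were 0.13 and 0.15. GSH2 lay below GSH1 on both arrays, by 0.40 and 0.56 on the log2 scale, a difference that was not tested.

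Among the 5 glutaredoxins, GRX2 had the largest ratio. GRX2, the main dithiol glutaredoxin, had 5307 and 5722 in deletion-labelled RNA against 6884 and 7621 in wild-type RNA (log2 ratio -0.39 ± 0.03; limma adjusted p = 1.15e-07). Its paralogue GRX1 was lower by less, with log2 ratios of -0.19 and -0.06 (mean -0.12; limma adjusted p = 0.01), so array 2 alone would give a smaller value. That call was lost after median centring (-0.07, limma adjusted p = 0.106) and with the series table (limma adjusted p = 0.0614). The monothiol glutaredoxins GRX3, which takes part in iron sensing, and GRX5, which serves iron-sulfur cluster assembly in mitochondria, did not pass, with mean log2 ratios of 0.05 and 0.03. Both passed as higher after median centring, at 0.17 (limma adjusted p = 0.00135) and 0.09 (limma adjusted p = 0.0329). GRX4, the partner of GRX3, was called higher with log2 ratios of 0.09 and 0.26 (limma adjusted p = 0.00174). It had the dimmest probe of the list, well above background in the deletion channel on 1 of 2 arrays, so the size of its ratio is not settled: it was 0.09 after median centring (limma adjusted p = 0.0731) and 0.40 in the scanner software's log ratios and 0.30 in the series table.

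The glutathione peroxidase-like genes did not move together either. GPX2, a Yap1 target, was lower, with log2 ratios of -0.22 on each array (SE 0.03; limma adjusted p = 3.89e-05). GPX1 was higher, with 0.22 and 0.15 (limma adjusted p = 0.00029), on a dim probe with a mean log2 signal of 8.73. HYR1, which senses peroxide and oxidises Yap1, had 0.04 and 0.16 (mean 0.10 ± 0.04; limma adjusted p = 0.0311). Array 1 alone would give a smaller value for HYR1. Its call was lost with the scanner software's log ratios (limma adjusted p = 0.12) and with the series table (limma adjusted p = 0.0966).

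The old yellow enzymes OYE2 and OYE3 are NADPH oxidoreductases, and ZWF1 and GND1 encode the NADPH-producing dehydrogenases of the pentose phosphate pathway. OYE3 was higher, with log2 ratios of 0.17 and 0.16 (SE 0.03; limma adjusted p = 0.000491). Its mean was 0.11 after median centring, 0.23 in the scanner software's log ratios and 0.24 in the series table. OYE2 and ZWF1 were not tested because their only spot was marked as an outlier on 1 array. With those spots kept, OYE2 had log2 ratios of -0.19 and -0.17 and ZWF1 had -0.05 and -0.16, and both were then called lower (limma adjusted p = 0.000312 and 0.0198). GND1 had -0.02 and 0.02 and did not pass (limma adjusted p = 0.997), but after median centring it was called higher, with 0.24 (limma adjusted p = 0.000103).

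**Figure D3:**
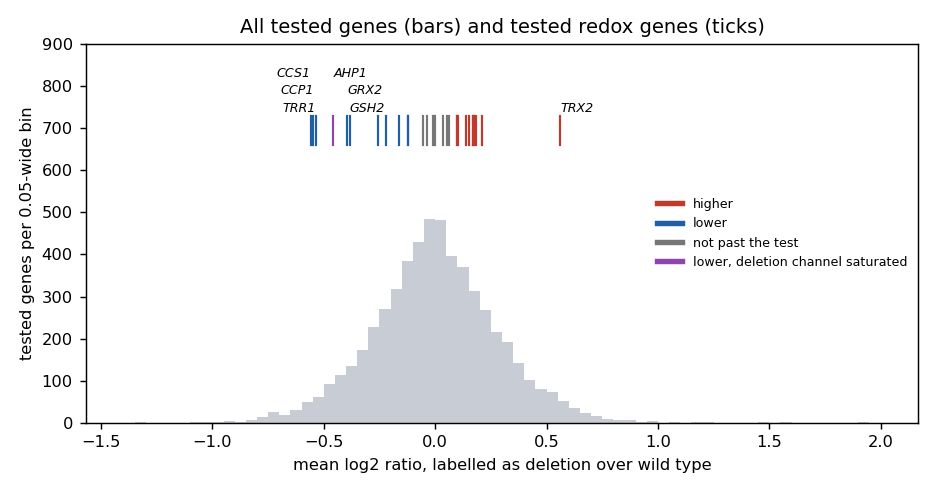
Histogram of mean log2 ratios over the 5641 tested genes, with a tick for each of the 30 tested redox genes. The ticks run from -0.56 (CCS1) to 0.56 (TRX2) and lie on both sides of 0, 11 higher and 11 lower. The lower ones include the saturated AHP1, drawn in purple.

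Well-known targets of Yap1 stood on both sides. A group of 7 such genes was picked by hand from the list after their values were seen, and it may leave out other targets. Of these 7, TRX2, GLR1 and GSH1 were higher and TRR1, TSA1 and GPX2 lower, beside 36.4% higher and 36.7% lower among all tested genes. The remaining one, AHP1, was called lower from a saturated red spot. The calls of TSA1 and GSH1 were lost after median centring, where TSA1 turned to 0.01, and that of GLR1 with the scanner software's log ratios. YAP1 itself was not tested, since its only spot was marked as an outlier on both arrays; with that spot kept its log2 ratios were 0.13 and 0.08 and it was called higher (mean 0.10; limma adjusted p = 0.0163). SKN7 had -0.16 and 0.02 and did not pass (limma adjusted p = 0.164), though it was called lower after median centring (-0.13, limma adjusted p = 0.0224).

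A further 42 redox genes outside the list were read alongside, and 40 were tested: 10 were higher, 14 lower and 16 did not pass, which makes 60% called against 73.1% of all tested genes. YCF1, a vacuolar transporter of glutathione conjugates, was higher by 0.63 ± 0.04 (SE, n = 2; limma adjusted p = 1.43e-09), with log2 ratios of 0.67 and 0.60. The nitric oxide dioxygenase YHB1 followed with 0.63 and 0.40, and TAL1 of the pentose phosphate pathway with 0.39 and 0.33. The array 1 value of YHB1 rests on 1 of its 2 spots. With the outlier spot kept it was 0.48, and the mean was 0.44 in place of 0.51. The metallothionein genes CUP1-1 and CUP1-2 gave mean log2 ratios of 0.38 and 0.37. They are copies of each other and are best read as 1 measurement, although the counts above hold both. Their copper-sensing activator CUP2 was lower, with -0.58 and -0.41.

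ALD6, a cytosolic aldehyde dehydrogenase that also makes NADPH, had the lowest ratio of these genes, with -0.63 and -0.61. ATR1, a multidrug exporter, had -0.46 and -0.51, the dipeptidase gene DUG1 had -0.39 and -0.30, and the glutathione transferase gene GTO3 had -0.30 on each array. CTT1, the cytosolic catalase, was lower by less, with -0.17 and -0.10 (mean -0.13 ± 0.04; limma adjusted p = 0.00322) and a dim probe, and its mean was -0.26 both in the scanner software's log ratios and in the series table. All of these calls were kept after median centring, where mean values became 0.58 for TAL1, 0.64 and 0.62 for CUP1-1 and CUP1-2, -0.38 for ALD6 and -0.22 for DUG1.

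The ratios were also set beside the brightness of the probes. Of the 14 brighter redox genes without the saturated AHP1, 4 were higher and 7 lower, and of the 15 dimmer ones 7 were higher and 3 lower. Among all 2047 tested genes as bright as the brighter ones, 39.9% were higher and 39% lower, with genes saturated in red kept in. Over all tested genes of any brightness 36.4% were higher and 36.7% lower. The dim genes alone were not counted. Spearman's rho between log2 ratio and mean log2 signal was -0.33 over the 29 genes without AHP1 (a choice made after seeing the data) and -0.38 with it, over probes that share the same 2 arrays and dyes, and -0.0051 over all 5641 tested genes. These values describe the list and were given no test. Loess, which removes a dependence on brightness within each array, and median centring, which does not, differed most at the bright end. There TSA1 and SOD1 turned from lower to slightly positive values without a call, and GND1 gained a call. TRX2 (0.54), CCP1 (-0.59), CCS1 (-0.42) and GSH2 (-0.39) were among the genes that kept their direction and call under median centring. The part of brightness in any of the ratios was not tested.

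**Figure D4:**
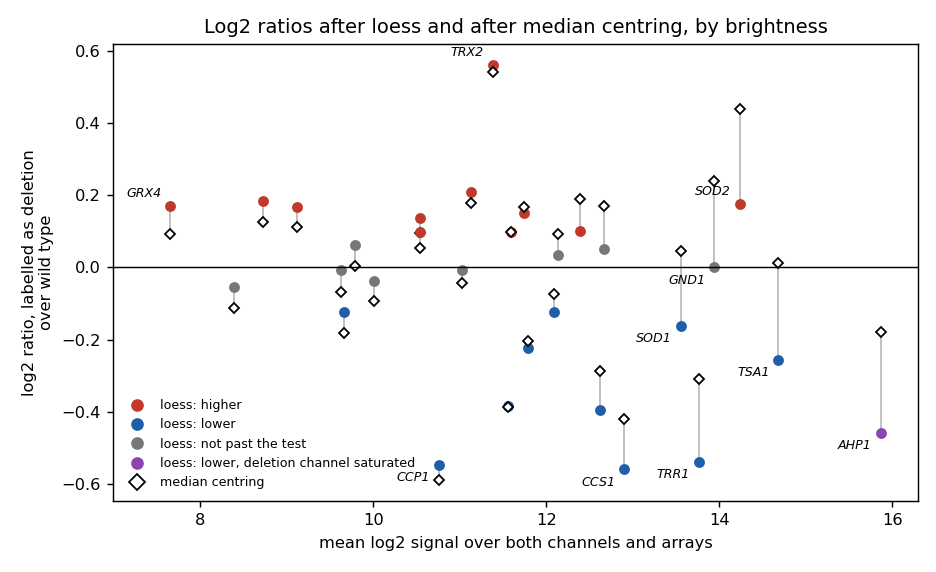
Log2 ratio of deletion-labelled over wild-type RNA (vertical axis) against mean log2 signal (horizontal axis) for the 30 tested genes; filled circles are values after loess, open diamonds values after median centring, joined by a line. The lines are longest above a mean log2 signal of 13, where SOD1 and TSA1 cross 0 and SOD2 reaches 0.44.

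The scanner software's own error model, which judges each spot within 1 array, was stricter. No redox gene had p under 0.01 in every kept spot on both arrays with 1 sign, compared with 5.07% of all tested genes (2.55% higher and 2.52% lower). At p under 0.05 there were 5 redox genes, namely TRX2, TRR1, CCS1, CCP1 and the saturated AHP1, compared with 11.6% of all tested genes. On repeat spots of the same array, the log2 ratios of the 19 redox genes with 2 spots differed by a median of 0.05 and by at most 0.16.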

How the data were processed

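Scanner intensities were deposited per spot and channel, written, per the file headers, by Agilent Feature Extraction 9.5.3.1, while 9.3.2.1 stands in the submitters' processing notes. A log10 value for red over green after the software's dye normalisation was deposited too, with its p-value, per the file headers. The authors' deposited series table gives log2 values per probe that ran red over green (slopes against the scanner ratios 0.987 and 0.988, medians -0.0049 and -0.00016); their averaging and normalisation are not given in the sources used here.

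Mean signals were corrected with normexp (offset 50) against median local background and normalised by loess within arrays, control spots at weight 0 (limma 3.58.1, R 4.3.3). Outlier spots were left out (6.47% and 8.92% of gene spots), and repeat spots averaged. Genes needed a spot well above background in a channel on both arrays. Log2 ratios, deletion-labelled over wild type, were tested against 0 over 2 arrays (lmFit, eBayes, Benjamini-Hochberg over 5641 genes). The precision rests on the 2 arrays and on a spread between them that eBayes pools over genes (13.2 prior degrees of freedom). Alternatives were offset 0, median centring, scanner ratios, the series table, outlier spots kept, saturated spots left out, no dim filter, a threshold of 0.01 and single arrays. Gene names came from RefSeq R64, which holds 5756 of the 6256 systematic names.

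The members, the further redox genes and the tests were chosen with earlier results of these data known. Every member is named. Of the further genes, the rule names the 5 largest higher and 5 largest lower called ratios with 1 sign on both arrays, and YAP1, SKN7 and CTT1. A planned search of promoters for motifs was not run, as no sequences were used here.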

Additional observations from a re-analysis of the deposited data

How the results depend on the processing

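The counts of redox genes (11 higher, 11 lower), of further redox genes (10 and 14) and of all genes (2051 and 2073) stayed within 1.5 times under offset 0, median centring, scanner ratios, the series table, outlier spots kept, saturated spots left out, no dim filter and a threshold of 0.01. With treat against 1.5-fold (chosen after seeing the data), they became 0 and 0, 0 and 0, and 40 and 42. For the listed redox genes that outcome was fixed, since none reached a 1.5-fold ratio. The median log2 ratio of the redox genes (-0.0033) was 0.028 after median centring, 0.0081 with scanner ratios, 0.017 with the 28 genes named as listed (also chosen after seeing the data) and between 0.0043 and 0.014 on single arrays. After median centring TSA1 turned to 0.011, SOD1 to 0.045 and GND1 to 0.24; loess and median centring differ by construction in what they remove with brightness. Single arrays give values without a test. Among the called redox genes, the values of HYR1 (0.04 and 0.16), GRX1 (-0.19 and -0.06), GRX4 (0.09 without array 2) and CTA1 (-0.07 without array 2) differed from the mean by over 1.5 times. Genes that did not pass are left out of this comparison. No separate paired analysis was run, because each array holds both strains and the test of its ratios against 0 is already paired. The fixed dyes and the saturated AHP1 spot limit these ratios, and dim probes (GRX4, TRX3, GPX1) limit their size.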
